A study of Mus musculus with 9 samples.

Results

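Visceral motor neurons (MNs) are the preganglionic neurons of the lateral column, whose axons reach the autonomic ganglia that in turn control smooth muscle, heart and glands. The data described here are the visceral nuclei of 3 libraries labelled cervical and 3 labelled thoracic, taken by the class in the deposited annotation and summed per library. They numbered 4113, of 5613 visceral and 16042 cholinergic nuclei in the series. The libraries held 1077, 420 and 374 nuclei in cervical replicates 1, 2 and 3, and 861, 402 and 979 in thoracic replicates 1, 2 and 3. The comparison is given first as labelled, and then with both replicate 2 libraries exchanged, because Hoxc5 and the shares of visceral clusters run in opposite directions in that pair. Those readouts chose the exchange, so they are described without a test, and the exchanged arrangement gets no test at all.

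All mice were 8 weeks old and carried 1 copy each of Chat-iCre and SUN-SfGFP (strain Chat-IRES-Cre::Sun1-sfGFP), so that cells with Cre under the control of Chat, the acetylcholine-synthesizing enzyme, carried a green nuclear envelope and could be sorted. There were no untreated or mutant groups: region is the only contrast, and lumbar/sacral libraries enter only as a reference for levels. Each pool of 4 mice was divided into the 3 regions, so that the libraries of a replicate come from the same animals. Replicate 1 pooled 2 males and 2 females, replicate 2 was male and replicate 3 female, and sex therefore cannot be told apart from the pool. Such a reporter also marks cells in which Cre was active at some earlier time, and the 34231 sorted nuclei included excitatory and inhibitory neurons.

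Hox genes encode homeodomain transcription factors that are laid out along chromosomes in the order in which they are switched on along the body axis, and many stay on in the adult cord. Genes of low paralog number reach far rostrally, whereas those of high number are limited to caudal segments. A Hox level is therefore a readout of rostrocaudal position that is read from the nuclei themselves. In the developing cord Hox factors act with cofactors of the Pbx and Meis families, and they direct which motor columns form at limb and at thoracic levels.

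The values were SCTransform-corrected counts, a model output that the authors rounded to whole numbers. The values of all nuclei of a class in a library were added up and scaled to a total of 1000000 (CPM), and a difference is cervical minus thoracic on the log2 scale of CPM plus 5. Totals ran from 3.61e+06 to 9.20e+06 corrected counts per visceral sum, and medians from 7016 to 16166.5 per nucleus. The deepest nuclei were those of the library labelled cervical, replicate 2. In the 6 visceral sums the class names held: the visceral markers Zeb2 and Fbn2 lay between 412 and 579 CPM and between 322 and 575 CPM. The skeletal marker Tns1 lay between 26.1 and 37.5 CPM, and the interneuron marker Pax2 between 0.55 and 9.41 CPM. In skeletal nuclei the library labelled cervical, replicate 2, stood apart. It held Zeb2 at 54.6 CPM and Pax2 at 18.1 CPM, against at most 7.70 and 8.21 CPM in the other skeletal sums. Its Tns1 level, 252 CPM, was the lowest of the 6. The part of this in the skeletal results was not tested. Any 2 libraries shared 0 to 12 cell barcodes. Fewer cells of a type and less RNA per cell cannot be told apart in summed nuclei.

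The libraries fell into 2 sets that the labels do not name. Cervical replicates 1 and 3, thoracic replicate 1 and lumbar/sacral replicate 1 formed set A, and the other 5 libraries formed set B. In visceral nuclei 688 to 1475 genes differed by at least 1 between libraries of different sets, against 87 to 558 between libraries of set A and 114 to 615 within set B. The sets were drawn from these visceral counts, so the gap in visceral nuclei follows in part from how they were defined. The split was as clear in interneurons, with 654 to 1216 genes between sets and at most 375 within either set. In skeletal nuclei the ranges touched, with 658 to 1483 genes between sets and up to 679 within set B. In replicates 1 and 2 both libraries of a pair belong to the same set, whereas the replicate 3 pair straddles them: 1019 of 9465 genes differed by at least 1 there, 900 of them higher in the thoracic library, against 85 genes in the replicate 1 pair and 102 in the replicate 2 pair. Microglial markers moved with the sets. The summed level of 4 of them was 25.7 to 37.5 CPM in the cervical and thoracic visceral sums of set A and 58.2 to 80.7 CPM in those of set B, 28.3 to 60.4 CPM over the cervical and 25.7 to 80.7 CPM over the thoracic libraries, and their part in the results was not tested. In the visceral sums the microglial gene Csf1r stayed at or under 1.15 CPM, but P2ry12 ran from 2.30 to 39.0 CPM and Cx3cr1 from 2.30 to 19.7 CPM. P2ry12 reached 98.2 CPM in the skeletal and 73.9 CPM in the interneuron sums, both in thoracic replicate 3.

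Hoxc5 is the Hox gene on which the exchange was proposed. It lies at chr15:102967443-103017429 (GRCm38, plus strand), a span of 49987 bases in the annotation that 6 other annotated genes on the same strand overlap, so reads from shared stretches may have been assigned to a neighbour. In visceral nuclei its level was 42.2, 78.3 and 49.5 CPM in cervical replicates 1, 2 and 3, and 93.8, 32.7 and 97.2 CPM in thoracic replicates 1, 2 and 3. The libraries labelled cervical, replicate 2, and thoracic, replicate 2, stood on the opposite sides from the other libraries of their labels. As labelled, the groups overlapped, with means of 56.7 ± 19.1 CPM and 74.6 ± 36.3 CPM (SD, n = 3 each). With the replicate 2 libraries exchanged they did not overlap, with 41.5 ± 8.42 CPM in cervical replicates 1 and 3 with thoracic replicate 2, and 89.8 ± 10.1 CPM in thoracic replicates 1 and 3 with cervical replicate 2. The 3 lumbar/sacral libraries held 80.5 to 96.2 CPM, the range of the higher group.

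Skeletal MNs and cholinergic interneurons come from the same libraries, and their Hoxc5 levels are likewise given as a description. In skeletal nuclei Hoxc5 was at 16.1, 82.5 and 15.6 CPM in cervical replicates 1, 2 and 3, and at 101, 9.44 and 94.5 CPM in thoracic replicates 1, 2 and 3. The low libraries were again cervical 1, cervical 3 and thoracic 2, with no value between 16.1 and 82.5 CPM. In interneurons the levels were 14.0, 50.9 and 9.28 CPM in the cervical and 56.4, 7.23 and 48.1 CPM in the thoracic libraries. Cervical minus thoracic differences in skeletal nuclei were -2.34 in replicate 1, 2.60 in replicate 2 and -2.27 in replicate 3.

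The share of nuclei in which Hoxc5 was counted at all divided the libraries in the same way, though not in the same order within each side. In skeletal nuclei it was 10.0%, 74.7% and 12% in cervical replicates 1, 2 and 3 and 68.8%, 8.02% and 53.1% in thoracic replicates 1, 2 and 3. The 95% Wilson interval of the library labelled cervical, replicate 2, was 67.6 to 80.7%, and that of thoracic, replicate 2, 6.21 to 10.3%, which cover counting error only. After every nucleus was thinned to 4600 corrected counts, which equalises the corrected total but not the sequencing depth and left out no nucleus of these 6 libraries, the shares were 6.95%, 29.5% and 7.19% against 34.6%, 3.94% and 36.8%. In visceral nuclei the thinned shares were 16.7%, 31.2% and 16.8% in the cervical and 36.1%, 12.9% and 34.7% in the thoracic libraries, so that the replicate 2 pair kept its order at an equal corrected total.

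**Figure D1:**
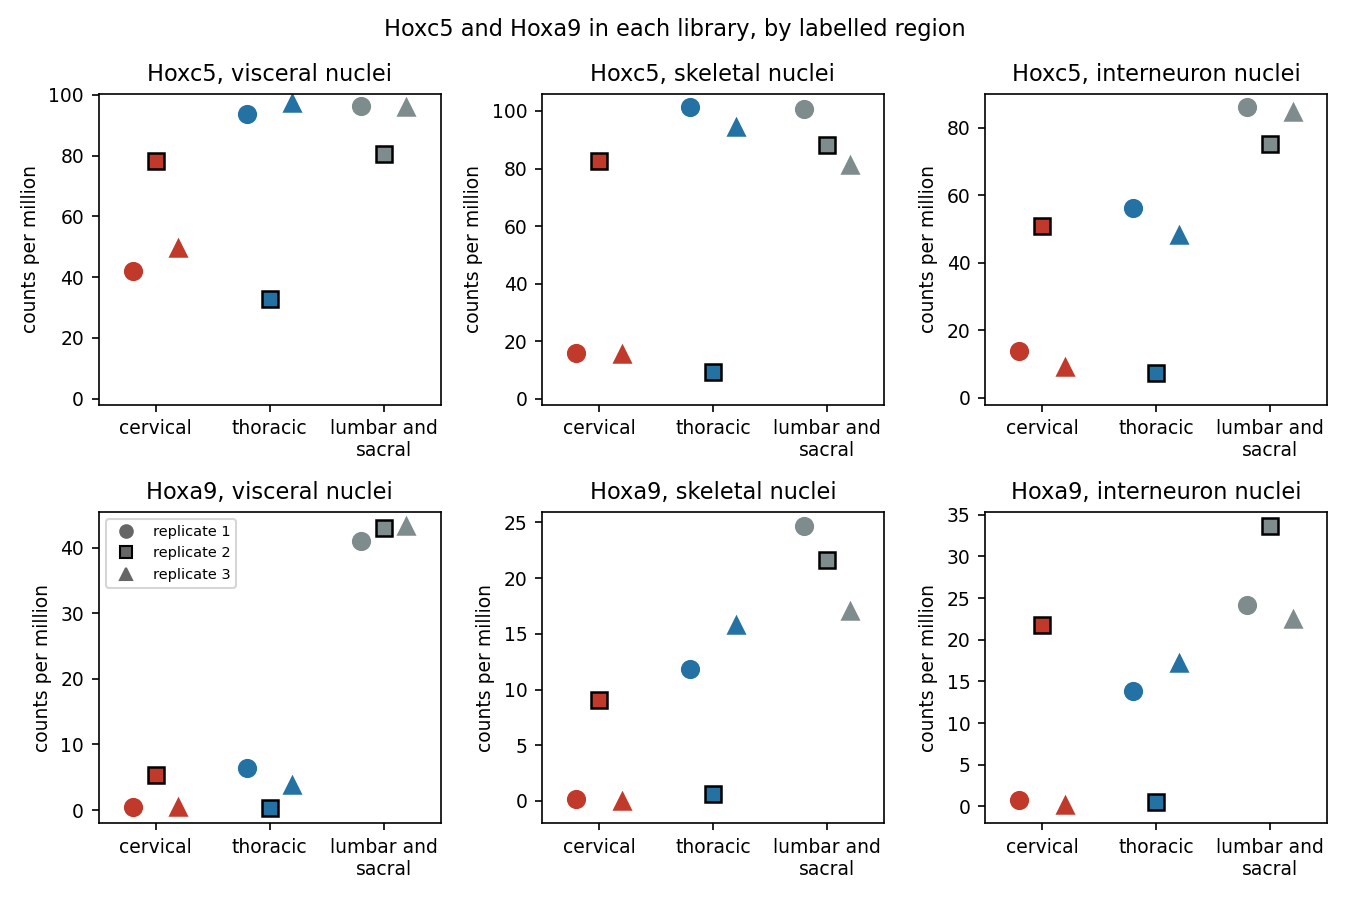
Level of Hoxc5 (upper row) and Hoxa9 (lower row) in CPM (vertical axis) in each of the 9 libraries, by labelled region (horizontal axis), for visceral, skeletal and interneuron nuclei; each point is 1 library, circles are replicate 1, outlined squares replicate 2 and triangles replicate 3. In skeletal nuclei Hoxc5 sits at 15.6 to 16.1 CPM in cervical replicates 1 and 3 and at 9.44 CPM in thoracic replicate 2, while cervical replicate 2 sits at 82.5 CPM.

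Hoxa9, of a more caudal paralog group (chr6:52223100-52231089, minus strand), showed the same division at a low level. In interneurons it was at 0.78, 21.7 and 0.22 CPM in cervical replicates 1, 2 and 3 and at 13.9, 0.52 and 17.2 CPM in thoracic replicates 1, 2 and 3. Only cervical replicate 2 of the cervical libraries and only thoracic replicates 1 and 3 of the thoracic libraries passed 1 CPM. In skeletal nuclei the levels were 0.14, 9.04 and 0 CPM against 11.9, 0.63 and 15.8 CPM. In visceral nuclei Hoxa9 stayed under the filter, at 0.41, 5.31 and 0.54 CPM against 6.41, 0.28 and 3.85 CPM, where lumbar/sacral libraries held 41.0 to 43.3 CPM.

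Other Hox genes were less divided or too low to judge. Of 28 Hox genes in the table, 2 passed the filter on low values in visceral nuclei, 3 in skeletal nuclei and 10 in interneurons, and the replicate 2 difference had the sign opposite to both other pairs for 1, 3 and 6 of them. The counts over all genes tested were 2826 of 9465, 2044 of 9346 and 2769 of 9348. Hoxc4, the neighbour of Hoxc5, differed by at most 0.39 in visceral nuclei: 79.4, 67.5 and 89.9 CPM in the cervical and 79.4, 50.2 and 72.6 CPM in the thoracic sums, which overlapped. In skeletal nuclei its differences were -0.80, 1.06 and -0.16 in replicates 1, 2 and 3. Hoxa7 in interneurons was at 7.97, 26.1 and 8.39 CPM in the cervical and 14.1, 13.8 and 27.3 CPM in the thoracic libraries. Its replicate 2 difference was 0.73, against -0.56 and -1.27 in replicates 1 and 3. Hoxb9 in interneurons was at 5.83, 22.5 and 6.63 CPM in the cervical and 15.2, 9.81 and 13.1 CPM in the thoracic libraries. Its differences were -0.90, 0.89 and -0.64 in replicates 1, 2 and 3. By contrast, Hoxb3, Hoxb4, Hoxb5 and Hoxb6 in interneurons had differences of at most 0.59 in size in every pair. Hoxd11, a caudal gene, was at 0 CPM in all 6 sums of every class and at 33.8 to 45.3 CPM in lumbar/sacral visceral nuclei, so no library of the 6 carried a lumbar/sacral level of it. The highest level of any gene of paralog groups 10 to 13 in the visceral sums of the 6 libraries was 0.87 CPM.

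The division of Hoxc5 was also described within single visceral clusters, where the shares of clusters play no part. Visceral Hoxc5 was a readout that chose the exchange, so these are the same values split by cluster and no further support for it. No count over all genes within clusters was made for comparison. Within each of the 8 visceral clusters with at least 10 nuclei in all 6 libraries, Hoxc5 was higher in the library labelled cervical than in the one labelled thoracic in replicate 2, by 0.40 to 2.02. In replicate 1 it was lower in the cervical library in 8 of 8 clusters, and in replicate 3 in 7 of 8, cluster V7 being the exception with a difference of 0.02. In V1 the levels were 39.9, 98.3 and 48.4 CPM in the cervical and 113, 28.5 and 106 CPM in the thoracic libraries. These clusters share their libraries and are not replicates of one another.

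**Figure D2:**
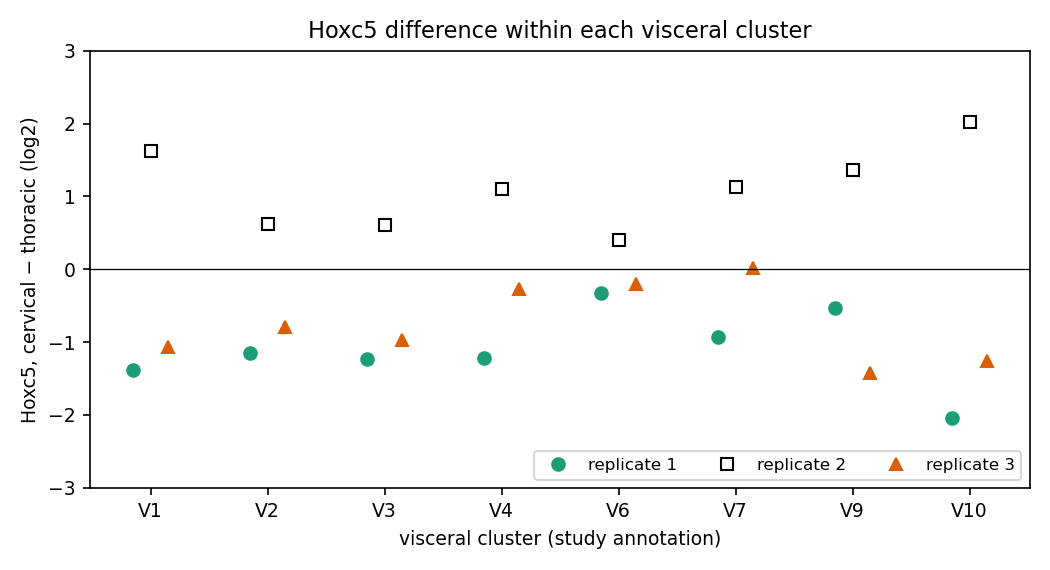
Difference in Hoxc5 between the cervical and the thoracic library of each replicate (vertical axis, log2 of CPM plus 5) within 8 visceral clusters of the study's annotation (horizontal axis); filled circles are replicate 1, open squares replicate 2 and filled triangles replicate 3. All 8 squares lie above 0, from 0.40 to 2.02, and all 8 circles lie below.

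The shares of the visceral clusters, on which the exchange was proposed, ran the same way. Cluster V5 made up 18.4%, 1.19% and 20.6% of the visceral nuclei in cervical replicates 1, 2 and 3, and 1.74%, 28.9% and 0.102% in thoracic replicates 1, 2 and 3. The Wilson interval was 0.51 to 2.76% in the library labelled cervical, replicate 2, and 24.6 to 33.5% in the library labelled thoracic, replicate 2. V2 and V7 had the mirror image. V2 made up 7.15%, 15% and 5.61% in the cervical and 18.4%, 5.22% and 20.1% in the thoracic libraries, and V7 6.13%, 14.8% and 7.22% against 17.2%, 5.22% and 16.6%. Of 10 clusters, 8 differed in the same direction in replicates 1 and 3, and 5 of these 8 were opposite in replicate 2. V1, V4 and V10 had the same sign in all 3 pairs: V4 held 9.94%, 10.5% and 8.02% against 16.8%, 10.9% and 13.5%, without overlap as labelled. In replicate 2, however, V4 and V10 differed by only -0.47 and 0.22 points. The V4 Wilson intervals of that pair, 7.90 to 13.8% and 8.26 to 14.4%, overlapped. For V10 thoracic replicate 2 held 5.97%, beside 4.92% and 5.61% in cervical replicates 1 and 3, against 1.63% in thoracic replicates 1 and 3. As labelled 1 cluster did not overlap, and after the exchange 4 did not.

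**Figure D3:**
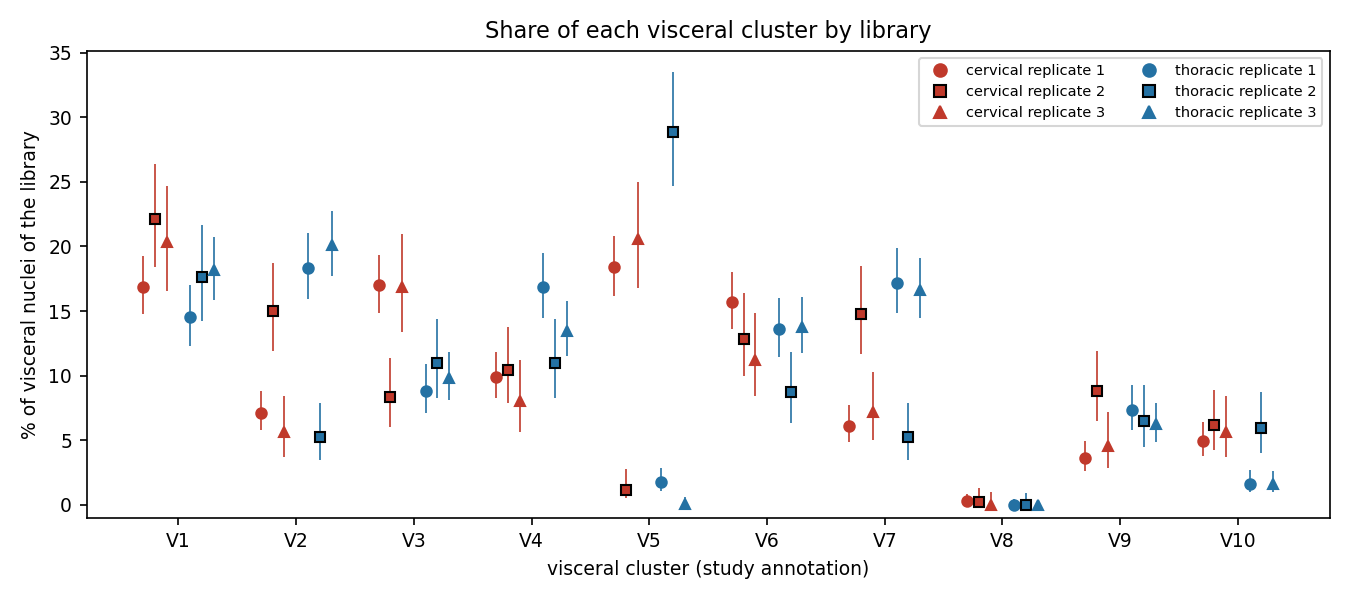
Share of each visceral cluster V1 to V10 (horizontal axis) among the visceral nuclei of a library, in percent (vertical axis); red points are libraries labelled cervical and blue points thoracic, circles replicate 1, outlined squares replicate 2 and triangles replicate 3, with 95% Wilson intervals as bars. For V5 the outlined red square lies at 1.19% and the outlined blue square at 28.9%, each beside the points of the other colour.

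Shares of whole classes moved likewise. Visceral nuclei were 38.1%, 56.2% and 26.3% of the cholinergic nuclei in cervical replicates 1, 2 and 3, and 56.0%, 23.1% and 60.1% in thoracic replicates 1, 2 and 3. Skeletal nuclei were 34.7%, 22.2% and 41.1% against 17.3%, 39.4% and 14.0%. Shares of a sort sum to 100%, so these values are not independent of one another.

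The shares of other neurons and of a skeletal cluster ran with the labels in part. Inhibitory neurons were 11.1%, 14.8% and 12.4% of all sorted nuclei in the cervical and 21.4%, 14.2% and 20.2% in the thoracic libraries. The Wilson intervals of the replicate 2 pair were 13.1 to 16.6% and 13 to 15.4% and overlapped. By their values the groups overlapped as labelled and did not after the exchange, but the latter rests on 14.2% against 14.8% in that pair. As labelled the difference of means was -5.84 percentage points (12.7 ± 1.85% against 18.6 ± 3.87%, SD, n = 3 each; two-sided exact permutation test, p = 0.2, adjusted over 2 shares 0.4), where 3 against 3 libraries cannot go below 0.1. Excitatory neurons differed by 4.80 points (33.5 ± 4.93% against 28.7 ± 4.05%, n = 3 each; exact permutation p = 0.4, adjusted 0.4). Both tests permuted the 6 libraries freely and left the pairing within replicates unused. The share of excitatory neurons was higher in the cervical library in all 3 pairs, at 30.0%, 39.1% and 31.4% against 29.0%, 32.6% and 24.5%.

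Among skeletal nuclei cluster S2, assigned to alpha MNs in the study, was more frequent in the cervical library of every pair. It made up 40.3%, 42.8% and 27.9% of skeletal nuclei in cervical replicates 1, 2 and 3 and 34.6%, 11.5% and 11.4% in thoracic replicates 1, 2 and 3. Here the replicate 2 difference, 31.3 points, was the largest of the 3 and had the labelled direction. The skeletal nuclei of its cervical library also held raised Zeb2 and Pax2, as given above. The 2 groups overlapped as labelled, since thoracic replicate 1 lay above cervical replicate 3.

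Across the genes of visceral nuclei, limma on the 6 libraries as labelled called 0 of 9465 genes at an adjusted p under 0.05, that is 0% of those tested, with 90 genes at an unadjusted p under 0.05. Corrected counts do not suit a count model, so no other tool was run. In simulated data of this layout, which had no such sets of libraries, the same test recovered 98% of genes changed 2-fold and 100% of those changed 4-fold. The simulated spread between libraries was set to the same value for all genes and not taken from these data. These recoveries therefore do not give the power of the test here, where the SE of Fras1 as labelled was 1.15. A term for the replicate left the count at 0, with 229 genes at an unadjusted p under 0.05, and a term for sets A and B left it at 0, with 159. Leaving out both replicate 2 libraries gave 4 calls of 8531 genes, all higher in cervical: Unc13c by 2.02 ± 0.14, Sema5a by 2.37 ± 0.19, Agbl1 by 2.08 ± 0.16 and Fras1 by 3.52 ± 0.29 (SE, limma adjusted p = 0.035 each). Because that pair was left out after its values were known, these 4 calls are not independent evidence. Leaving out any single library, or another pair, left the count at 0.

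Genes that differed in the same direction in replicates 1 and 3 were then read in replicate 2. Their replicate 2 differences had no part in the choice of genes. The replicate 2 pair itself, however, was singled out by Hoxc5 and by cluster shares of these same nuclei. Many of the genes were highest in clusters with such shares, as given below, so the reading is not independent of that choice. In visceral nuclei 60 of 9465 genes (0.634%) differed by at least 1 with the same sign in replicates 1 and 3, 36 higher in the cervical and 24 higher in the thoracic library. None differed by at least 1 with opposite signs. In replicate 2 all 60 had the opposite sign, 36 of them by at least 1, and none differed by 1 in the direction of the other pairs. The filter on low values did use replicate 2, and 18 of the 60 passed it only with a replicate 2 library, Bnc2 and Isl1 among them. With the filter on the 4 libraries of replicates 1 and 3 alone (10 CPM in at least 2 of them), added after these values were seen, 61 of 9090 genes were chosen, and all 61 were opposite in replicate 2. Over all genes with the same sign in replicates 1 and 3, whatever the size, 48.6% (2826 of 5811) were opposite in replicate 2. Replicates 1 and 2 shared 0 genes past 1 with the same sign and had 53 with opposite signs, and replicates 2 and 3 had 0 and 57. Across genes, which are not independent replicates, Pearson's r of the differences was 0.37 between replicates 1 and 3, -0.45 between 1 and 2 and -0.20 between 2 and 3.

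**Figure D4:**
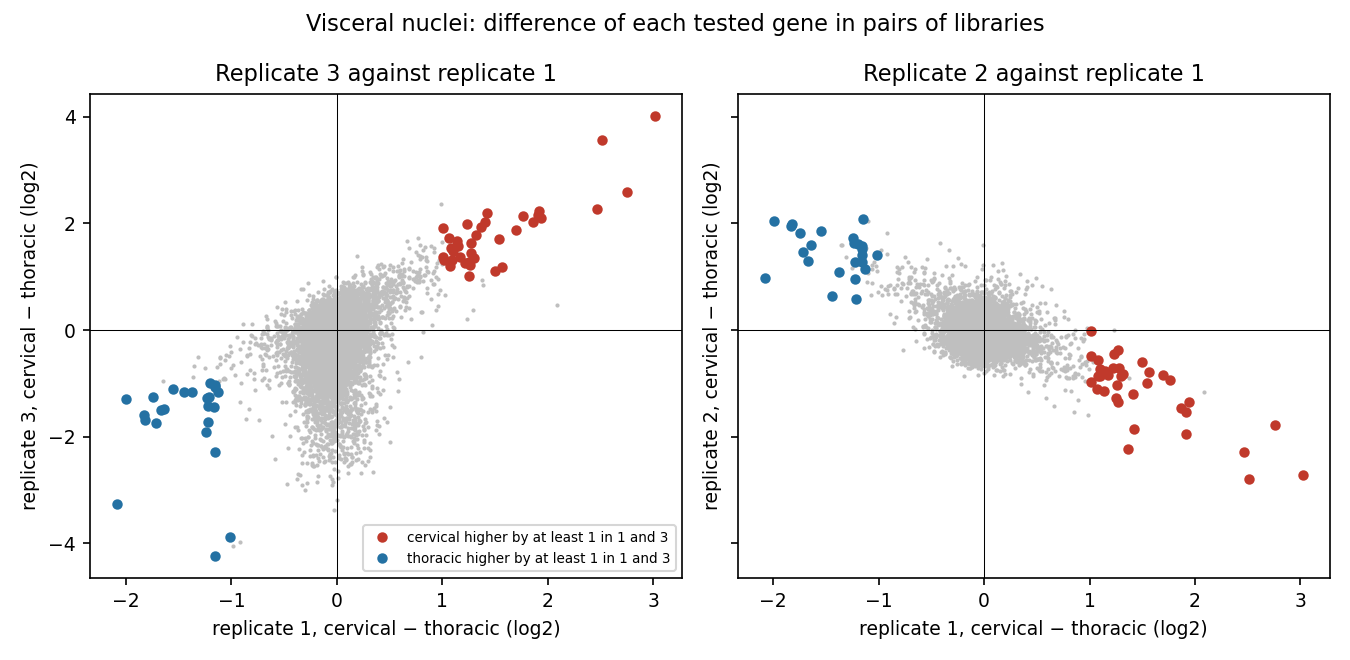
Difference between the cervical and the thoracic library (log2 of CPM plus 5) in replicate 3 (left) and in replicate 2 (right) against the same difference in replicate 1 (horizontal axes); each grey point is 1 of 9465 tested genes of visceral nuclei, red points are the 36 genes higher in cervical and blue points the 24 higher in thoracic by at least 1 in replicates 1 and 3. On the left the coloured points lie in the same-sign corners by choice, and on the right all 60 lie in the opposite-sign corners; grey points spread downward on the left, where 900 genes were higher by at least 1 in the thoracic library of replicate 3.

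As labelled, 498 of the 9465 genes (5.26%) had cervical and thoracic values that did not overlap, 125 of them higher in cervical. With the replicate 2 libraries exchanged there were 802 (8.47%), 447 of them higher in the group of cervical replicates 1 and 3. Were the 6 libraries interchangeable, 3 would lie apart from the other 3 with a probability of 0.1 per gene. Both shares lie under that level, genes are not independent, and neither count was tested. Since the signs of the 60 genes in all pairs were known by then, whether their groups overlap in either arrangement follows largely from the choice and is no further result. Their log2 differences lay between -1.46 and 1.44 as labelled and between -2.49 and 3.26 after the exchange.

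Of the named genes higher in cervical replicates 1 and 3, those with products in the matrix or at the cell surface are given first. Fras1 (chr5:96373955-96784728), which encodes a basement membrane protein, had 178, 21.8 and 199 CPM in cervical replicates 1, 2 and 3 and 17.5, 172 and 7.57 CPM in thoracic replicates 1, 2 and 3. The library labelled thoracic, replicate 2, thus stood with cervical replicates 1 and 3, and that labelled cervical, replicate 2, with thoracic replicates 1 and 3. As labelled the means were 133 ± 96.9 CPM and 65.6 ± 92.1 CPM, and after the exchange 183 ± 14.5 CPM and 15.6 ± 7.32 CPM (SD, n = 3 each). Sema5a (chr15:32244810-32696341), a semaphorin that guides axons, had 104, 11.4 and 117 CPM against 14.7, 74.5 and 20.1 CPM. Ltbp1, which binds latent TGF-beta in the matrix, had 33.3, 4.10 and 40.1 CPM against 5.54, 19.9 and 6.03 CPM, and Nell1, a secreted glycoprotein, 483, 148 and 417 CPM against 139, 286 and 91.3 CPM.

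Transcription factors and a receptor gene were also among them. Bnc2 (chr4:84275095-84675275), a zinc finger protein, had 36.9, 0.91 and 34.3 CPM in the cervical and 1.2, 15.2 and 1.54 CPM in the thoracic libraries. It was at or under 1.54 CPM in cervical replicate 2 and thoracic replicates 1 and 3, and at 15.2 CPM or more in the others. Sox5, a transcription factor of neuronal differentiation, differed by 1.70 and 1.88 in replicates 1 and 3 and by -0.85 in replicate 2. Lgr5, a receptor for R-spondins, differed by 1.42, -1.86 and 2.20 in replicates 1, 2 and 3. Unc13c, which primes synaptic vesicles, had 464, 132 and 486 CPM against 117, 346 and 110 CPM. The remaining named genes were Agbl1, a carboxypeptidase that acts on tubulin, at 1.92, -1.53 and 2.23, the phospholipase gene Plcz1 at 1.91, -1.95 and 2.15 and the formin Daam2 at 1.54, -0.99 and 1.72. Plcz1 reached at most 20.8 CPM and Daam2 at most 19.0 CPM.

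The 24 genes higher in thoracic replicates 1 and 3 included regulators of neuronal identity. Nr2f1 (chr13:78188973-78199757), a nuclear receptor of the COUP-TF family, had 21.8, 55.8 and 19.0 CPM in cervical replicates 1, 2 and 3 and 57.7, 26.3 and 59.3 CPM in thoracic replicates 1, 2 and 3. Isl1 (chr13:116298281-116309689), a LIM homeodomain factor of motor neurons, had 8.13, 24 and 6.15 CPM against 25.7, 6.93 and 31.7 CPM. The nuclear receptor gene Rorb had 15.4, 46.7 and 9.63 CPM against 67.4, 8.04 and 42.3 CPM. For all of these the replicate 2 libraries again lay among those of the other label. Id2, an inhibitor of basic helix-loop-helix factors, differed by -1.21, 0.59 and -1.25 in replicates 1, 2 and 3.

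The other named genes of this direction encode secreted, matrix, surface or intracellular proteins. Cartpt (chr13:99898489-99901091), the precursor of the CART neuropeptide, had 10.3, 78.3 and 1.61 CPM in the cervical and 59.8, 37.4 and 58.2 CPM in the thoracic libraries. Its thoracic replicate 2 value lay between the low and the high libraries. Gpc3, a heparan sulfate proteoglycan of the cell surface, had 11.2, 47.8 and 10.7 CPM against 52.7, 8.59 and 42.3 CPM. Lama2, a laminin chain, differed by -1.67, 1.30 and -1.50 in replicates 1, 2 and 3, and Angpt1, a ligand of the Tie2 receptor, by -1.23, 1.64 and -1.28. Cpa6, a carboxypeptidase, differed by -2.0, 2.05 and -1.30, and Ptprk, a receptor phosphatase, by -1.75, 1.81 and -1.26. Myo3a, a myosin, differed by -1.72, 1.46 and -1.75, and Arhgap36 by -1.45, 0.64 and -1.17. In all 12 the replicate 2 difference had the opposite sign to that of both other pairs, by 0.59 to 2.05.

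**Figure D5:**
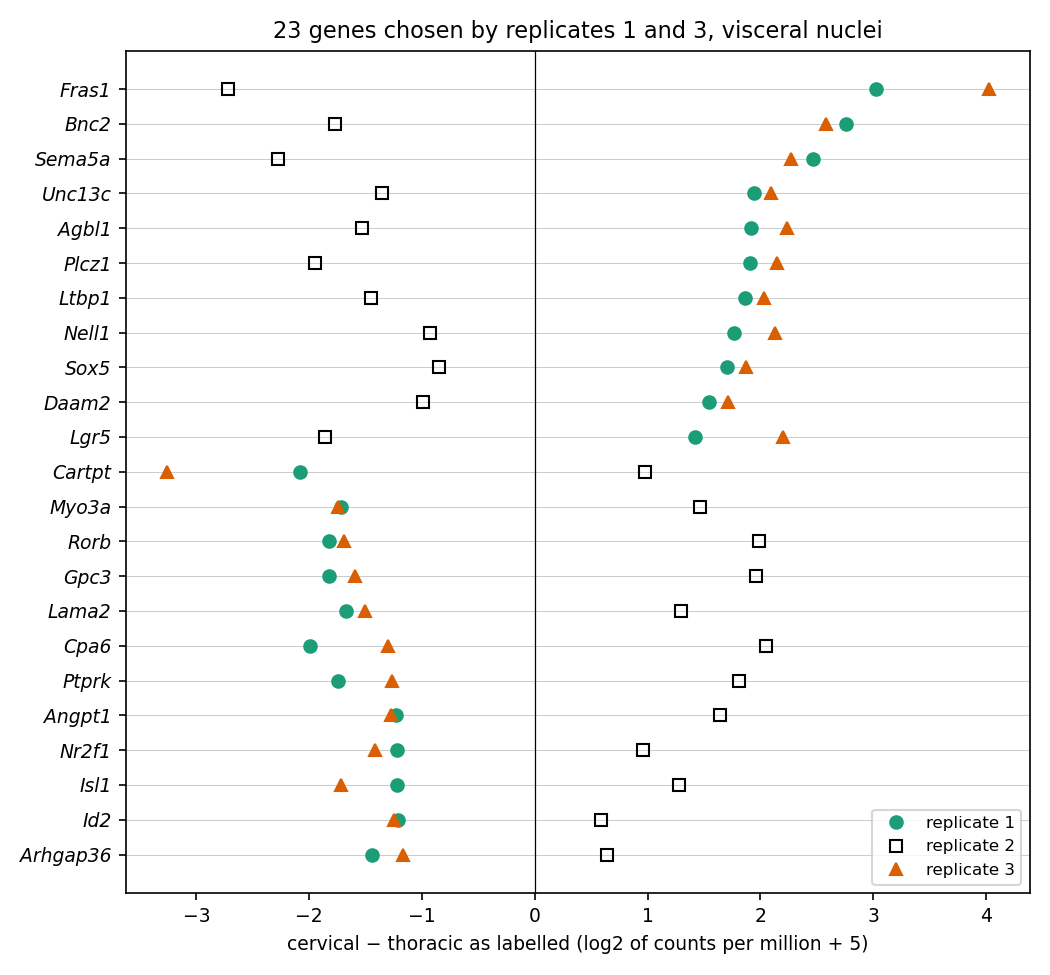
Cervical minus thoracic difference as labelled (horizontal axis, log2 of CPM plus 5) of 23 named genes of visceral nuclei (vertical axis), 11 higher in cervical and 12 higher in thoracic replicates 1 and 3; filled circles are replicate 1, open squares replicate 2 and filled triangles replicate 3. Circles and triangles share a side by choice, from 1.42 to 4.02 for the 11 upper genes, and every square lies on the other side, from -2.72 for Fras1 to 2.05 for Cpa6.

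The genes were then set against the clusters, and what part cluster shares had in the differences was not tested. Of the 36 genes higher in cervical replicates 1 and 3, 14 had their highest level in V5, 10 in V10 and 8 in V3, and of the 24 others 15 had it in V2. When 8 clusters were given equal weight in every library, which leaves out V5 and V8, 12 genes still differed by at least 1 in replicates 1 and 3, all of them among the 60 and all opposite in replicate 2. Bnc2 then differed by 2.5, -2.05 and 2.22 and Sema5a by 2.33, -2.36 and 2.31 in replicates 1, 2 and 3, close to their values without weighting. The 12 genes were Bnc2, Sema5a, Sox5, Ltbp1, Erbb4, Ptprt, Tmem132d, Myo3a, Cartpt and 3 predicted genes. With V5 alone left out there were 42 genes, 38 of them among the 60, and 41 were opposite in replicate 2, the exception being the cadherin gene Cdh20 at 0.16. Within clusters the picture was looser: over the 23 named genes and 8 clusters, 114 of 184 replicate 2 differences had the opposite direction, and 138 and 131 had the chosen direction in replicates 1 and 3. No count over all genes within clusters stands beside these. Sema5a and Nr2f1 followed the pattern in 7 of 8 clusters each. In V2 Sema5a had 293, 29.7 and 284 CPM in the cervical and 26.8, 241 and 17.7 CPM in the thoracic libraries. Daam2 and Agbl1 followed it in 0 of 8, but both had their highest level in V5, which is not among these clusters. In V1 and V9 Daam2 was at 0 CPM in all 6 libraries. Such clusters could not show the pattern, yet they stayed among the 184.

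Within set A, cervical replicates 1 and 3 lay below thoracic replicate 1 in Hoxc5, with mean log2 differences of -0.96 in visceral, -2.35 in skeletal and -1.90 in interneuron nuclei. Within set B cervical replicate 2 lay above thoracic replicate 2 but below thoracic replicate 3 in visceral nuclei, with 78.3, 32.7 and 97.2 CPM, and in skeletal nuclei, with 82.5, 9.44 and 94.5 CPM. In interneurons it held 50.9 CPM, against 7.23 CPM in thoracic replicate 2 and 48.1 CPM in thoracic replicate 3. Within set B the difference of opposite sign thus rests on thoracic replicate 2 in visceral and skeletal nuclei.

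No gene differed by at least 1 in the same direction in all 3 pairs of visceral nuclei as labelled, although 2985 of 9465 had the same sign throughout. The largest smallest difference was that of Synpr, a synaptic vesicle protein, at 0.64, 0.77 and 0.61 in replicates 1, 2 and 3. It had 52.2, 41.0 and 49.8 CPM in the cervical and 31.7, 21.9 and 30.9 CPM in the thoracic libraries, without overlap. The potassium channel gene Kcnh5 came next, at 0.55, 0.82 and 0.94. Synpr and Kcnh5 were named after their values were seen, and neither was called in limma.

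The other 2 classes differed in how far the labels held. In interneurons 9 of 9348 genes (0.0963%) differed by at least 1 with the same sign in replicates 1 and 3, and all 9 were opposite in replicate 2, 7 of them by at least 1, beside 52.1% of all genes with the same sign in replicates 1 and 3. Besides Hoxc5 and Hoxa9 they included, named after their values were seen, the zinc finger gene Rreb1 (40.1, 7.90 and 24.1 CPM in the cervical and 6.24, 30.5 and 3.86 CPM in the thoracic libraries) and the adenylyl cyclase gene Adcy2 (138, 39.9 and 110 CPM against 64.9, 86.2 and 49.9 CPM). Limma called 0 of 9348 genes as labelled (0%), with 91 at an unadjusted p under 0.05.

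In skeletal nuclei 18 of 9346 genes (0.193%) differed by at least 1 in replicates 1 and 3, and 11 of them were opposite in replicate 2, 2 by at least 1: Hoxc5 and Cadps2, a gene of vesicle release, at -1.04. Cadps2 was named after its values were seen. The other 7 kept the labelled direction, Col11a1 and Zfp804b by at least 1. Over all skeletal genes with the same sign in replicates 1 and 3, 38.4% were opposite in replicate 2. Col11a1, a collagen gene, had 43.1, 33.0 and 32 CPM in the cervical and 12.6, 11.8 and 5.28 CPM in the thoracic libraries, without overlap as labelled. In this class 1050 genes (11.2%) did not overlap as labelled and 342 (3.66%) after the exchange, the reverse of the order in visceral nuclei. The percentages in interneurons were 5.34% and 5.64%. The probability of 0.1 for interchangeable libraries applies to these classes too, and none of these counts was tested. Limma called 0 of 9346 genes as labelled (0%), with 422 at an unadjusted p under 0.05. With a term for sets A and B, added after these were seen, it called 4 genes, all higher in cervical: Zfp804b by 1.67 ± 0.21, Kcnh7 by 1.08 ± 0.12, Ntm by 1.07 ± 0.12 and Negr1 by 0.99 ± 0.12 (SE, limma adjusted p = 0.043 each).

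Those 4 genes were higher in the cervical library of every pair, replicate 2 included. The test that chose them used the replicate 2 libraries as labelled. Their agreement over the pairs, and groups without overlap, therefore follow largely from the choice and are no further result. Kcnh7, a potassium channel gene, had 97.0, 108 and 108 CPM in the cervical and 46.5, 50.3 and 45.9 CPM in the thoracic skeletal sums. Negr1, a cell adhesion gene, had 348, 419 and 381 CPM against 212, 182 and 176 CPM. The groups did not overlap for either gene, and the replicate 2 libraries lay with the others of their own label. Scaling bears on this class: its median difference over all genes was -0.12 with scaling to the total and 0.03 with scaling by the median of ratios, and the sums of the library labelled cervical, replicate 2, rest on 166 skeletal nuclei. Region and the composition of skeletal clusters, S2 among them, cannot be told apart in these sums.

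The 60 genes of visceral nuclei were followed in the other classes. Of the 41 that passed the filter in skeletal nuclei, 16 showed the direction of visceral nuclei in replicates 1 and 3 with the opposite sign in replicate 2, and of the 45 in interneurons 20 did. Over all genes tested, the corresponding pattern, with the direction left free, was met by 21.9% in skeletal nuclei and by 29.6% in interneurons. Ltbp1 showed it in both, at 0.76, -1.18 and 0.81 in skeletal nuclei and 0.84, -0.69 and 1.41 in interneurons. Unc13c did not: in skeletal nuclei it was higher in the cervical library of each pair, by 1.22, 0.98 and 1.70.

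The gene lists of the visceral comparison gave 0 calls in limma, as all genes did. Among Hox genes, 2 of the 20 listed in paralog groups 1 to 5 could be tested and none in the 3 more caudal lists. Of 9 Hox cofactors tested, Meis2, a TALE homeodomain gene, differed by -1.55, 1.85 and -1.11 in replicates 1, 2 and 3. Its levels were 231, 465 and 230 CPM in the cervical and 686, 125 and 503 CPM in the thoracic libraries, while Meis1 had 920, 631 and 902 CPM against 844, 655 and 637 CPM. The list medians were -0.02, -0.04 and -0.02, beside -0.02, -0.04 and -0.11 over all genes. Of 4 retinoic acid genes tested none passed 1 in replicates 1 and 3, and the synthetic enzyme gene Aldh1a1 differed by 0.41, -0.06 and 0.43. The markers of visceral subtypes were chosen by the study on these samples and are no independent evidence: 11 of 12 tested had the same sign in replicates 1 and 3 and 9 of these 11 were opposite in replicate 2, with Fras1, Bnc2, Sema5a and Gpc3 past 1. The counts over all genes were 5811 of 9465 and 2826 of 5811. Piezo2, a mechanically gated channel gene of that list, had 51.4, 76.0 and 58.6 CPM against 89.7, 26.3 and 72.5 CPM.

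Lists of transmission and adhesion genes held few members past 1 in both replicates 1 and 3. Of 10 neuropeptide and granin genes tested Cartpt alone passed 1 in replicates 1 and 3, and the granin Scg2 differed by -0.39, -0.40 and -1.52, that is in the same direction in all pairs. Of 7 cholinergic genes none passed 1: Chat had 248, 205 and 216 CPM in the cervical and 204, 255 and 184 CPM in the thoracic libraries, and the choline transporter gene Slc5a7 differed by 0.30, -0.55 and 0.42. Of 21 cadherins 14 had the same sign in replicates 1 and 3, with Cdh20 past 1, and 11 of the 14 were opposite in replicate 2. Cdh12 had 256, 357 and 244 CPM against 557, 168 and 350 CPM. Of 22 semaphorins, plexins and neuropilins 16 had the same sign in replicates 1 and 3, with Sema5a past 1, and 13 of the 16 were opposite in replicate 2. Over all genes 5811 of 9465 had the same sign in replicates 1 and 3, and 48.6% of those 5811 were opposite in replicate 2.

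Markers of the classes and of other cells did not pass 1 in replicates 1 and 3. Of 3 visceral class markers Zeb2 differed by 0.15, -0.04 and 0.49. All 7 tested skeletal class markers and 2 of 3 tested interneuron class markers had the same sign in replicates 1 and 3 and the opposite sign in replicate 2, with list medians of 0.08, -0.12 and 0.24 and of 0.10, -0.04 and -0.13. Among all genes tested 2826 of 9465 met that pattern of signs. None of the excitatory markers could be tested, and their sum stayed at or under 8.29 CPM. Oligodendrocyte markers summed to 56.1 to 63.9 CPM over the cervical and 57.9 to 67.2 CPM over the thoracic libraries, and astrocyte markers to 19.8 to 24.4 CPM and 18.6 to 29.4 CPM, with Aqp4 at or under 0.30 CPM. Of 14 immediate early genes 2 were tested, and Jun was the only one with the same sign in replicates 1 and 3. The 5 sex genes cannot tell the libraries of a pool apart, as all libraries of a pool come from the same mice.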

How the data were processed

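Sorted GFP+ nuclei of 9 libraries were profiled by droplet-based single-nucleus RNA-seq that reads transcript 3' ends. According to the methods of the study and the submitters' processing notes, the authors used Cell Ranger 3.1.0 with an mm10 reference and counted introns, removed outlying nuclei and normalized each library with SCTransform in Seurat. The deposited values are whole-number corrected counts, treated here as a score made by a model: they bring the nuclei of a library to a similar total, so count models (DESeq2, edgeR) were not applied here. Class, cluster and type came from the deposited annotation. Doublets were not removed here.

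Corrected counts were summed per library and class and scaled to CPM. A gene was tested if 3 or more of the 6 sums reached 10 CPM, and the tests were done with limma 3.58.1 in R 4.3.3 (trend, log2 of CPM plus a pseudocount of 5), with Benjamini-Hochberg adjustment and a call at an adjusted p under 0.05. The transgene row stayed out of the tests. Replicate numbers pair libraries, since all regions of a replicate come from the same mice. Deviations from the group means correlated at 0.75, 0.36 and -0.15 in replicates 1, 2 and 3 in visceral nuclei, where the replicate 3 pair spans 2 sets of libraries, defined by average linkage on the number of genes that differ by at least 1. Labels name no cultures or animals within a library, so p-values measure the spread between pools.

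Named genes were the Hox genes; the 12 genes per direction, predicted genes left out, with the largest smaller difference over replicates 1 and 3, of which 1 is not reported here; up to 8 limma calls per direction; genes past 1 in all pairs; and leading members of 20 lists with class markers. The comparison, lists and rules were chosen with earlier results of these data known. The exchanged arrangement was chosen from outcomes, so it was only described. Shares were compared by exact permutation tests, intervals are Wilson intervals at 95%, and thinning used 4600 corrected counts per nucleus (seed 1). The analysis was tested on simulated data. Python 3.11.15, numpy 2.4.6, pandas 2.3.3 and scipy 1.17.1 were used. Coordinates are from GENCODE vM21 (GRCm38). Alternatives were another scaling, pseudocounts of 1 and 20, other filters, all 9 libraries, the replicate as a block, libraries left out, equal weight of clusters and, chosen after seeing the data, a term for the sets, V5 left out and a filter on replicates 1 and 3 alone.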

Additional observations from a re-analysis of the deposited data

Results flagged for a closer look

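Hoxc5 differed in opposite directions between the pools of different sex. In the male pool, replicate 2, the cervical minus thoracic difference was 1.14 in visceral nuclei, 2.60 in skeletal nuclei and 2.19 in interneurons on the log2 scale. In the female pool it was -0.91, -2.27 and -1.89, and in the pool of both sexes -1.07, -2.34 and -1.69. The difference between pools was not tested: there is 1 male and 1 female pool, and sex, pool and a possible exchange of the libraries labelled cervical and thoracic in replicate 2 cannot be told apart from these values alone. Whether the labels were exchanged was not tested.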

How the results depend on the processing

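The count of visceral genes called as labelled ran from 0 to 4 when libraries or replicates were left out, the 4 arising without replicate 2, and was 0 in every other setting. With the replicate as a block it was 0 in visceral, skeletal and interneuron nuclei, so the pairing changed no call. In skeletal nuclei it ran from 0 to 0 with libraries left out, and a term for the 2 sets gave 4. In interneurons it stayed at 0. The 60 genes that differ alike in replicates 1 and 3 became 22 with a pseudocount of 20, 12 with equal weight of clusters and 250 with a difference of at least 0.5, of which 22, 12 and 232 were opposite in replicate 2. The replicate 2 difference of Agbl1 turned to 0.65 with equal weight of clusters, the 1 of 115 gene values over 24 genes to change sign. A kept sign did not mean a kept size. In that setting the replicate 2 difference of Lgr5 went from -1.86 to -0.02 and that of Sox5 from -0.85 to -0.22. Plcz1 and Daam2 had no value there. For all of these the cause was not tested beyond how each setting is built. Excitatory and inhibitory differences ran from 3.78 to 6.69 and from -9.05 to -3.61 points with replicates left out. The 802 genes without overlap after the exchange ran from 635 to 986, and the 498 as labelled from 372 to 647. Precision is limited by 374 to 420 visceral nuclei in 3 of the libraries and 166 skeletal nuclei in cervical replicate 2.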
